A study of Homo sapiens with 8 samples.

Results

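MicroRNA genes and the long transcripts that carry microRNAs were followed across 2 human lymphoma cell lines. They were chosen by name from the gene table of the array platform: every symbol that begins with MIR and a digit or with MIRLET7, including those that end in HG for host gene, together with DLEU2. The table held 263 such symbols. Of these, 196 had a probe set assigned to that symbol alone, out of 17958 genes measured on such probe sets. The other 67, among them MIR155, MIR155HG, MIR17HG and MIR22HG, stood only on probe sets shared with other symbols and were not analysed here. The 196 comprised 180 microRNA genes and 16 long transcripts, which were DLEU2 and 15 HG transcripts.

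Total RNA was measured on 8 whole-transcript arrays in 3 groups. KMH2, an established Hodgkin lymphoma line, was measured on 3 arrays after 24 h of glucosamine, an amino sugar, and on 3 control arrays without it. Its dose is not given in the sources used here. Ramos, an established Burkitt lymphoma line, was measured on 2 arrays. Per the labels both are controls, whereas the series' design text has 1 taken before and 1 after the treatment. Ramos is therefore described as a cell line only, with the value on each array given and no treatment read into either. The design text describes the KMH2 arrays as biological replicates. Nothing in the sources used here says so of the Ramos pair. Its p-values in the main fit use a spread pooled over all 8 arrays, mostly that between KMH2 arrays. They do not measure variation between Ramos cultures. Each disease is represented by 1 line, and disease and line cannot be told apart. By the design text, KMH2 cells were taken both ahead of and following the treatment. If the control arrays are the earlier samples, glucosamine cannot be told apart from 24 h more in culture. Differences described below as with or after glucosamine carry this limit, and the part of culture time was not tested.

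MicroRNAs are short RNAs that pair with messenger RNAs, mainly through a seed near their 5′ end, and lower translation or stability of those messages. Their genes are transcribed as long primary transcripts, often as introns or exons of a host gene. DROSHA with DGCR8 cuts the hairpin out in the nucleus, XPO5 exports it, DICER1 trims it and an Argonaute protein holds the mature strand. The array labels cDNA made from total RNA, so a probe set at a microRNA gene cannot tell primary transcript, hairpin and unspliced host RNA apart, and mature microRNAs were not measured separately.

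Sequences are shown for the microRNA genes on which the glucosamine comparison turns, as RNA, 5′ to 3′, from RefSeq on GRCh38.p14. Of the 196, 195 matched a RefSeq gene of the same symbol and 162 had a hairpin sequence. In the hairpins, capitals mark the annotated mature arms. MIR142 lies at chr17:58331232-58331318 on the minus strand, MIR199A2 at chr1:172144535-172144644 on the minus strand and MIR21 at chr17:59841266-59841337 on the plus strand. MIR32 lies at chr9:109046229-109046298, MIRLET7G at chr3:52268278-52268361, MIR25 at chr7:100093560-100093643 and MIR15A at chr13:50049119-50049201, all on the minus strand.
MIR142 hairpin: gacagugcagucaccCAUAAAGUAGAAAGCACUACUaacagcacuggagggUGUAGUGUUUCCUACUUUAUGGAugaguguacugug
MIR199A2 hairpin: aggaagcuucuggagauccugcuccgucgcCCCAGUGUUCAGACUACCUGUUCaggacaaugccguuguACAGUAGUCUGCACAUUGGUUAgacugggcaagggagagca
MIR21 hairpin: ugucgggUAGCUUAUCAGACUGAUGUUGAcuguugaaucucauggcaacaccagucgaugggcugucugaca
MIR32 hairpin: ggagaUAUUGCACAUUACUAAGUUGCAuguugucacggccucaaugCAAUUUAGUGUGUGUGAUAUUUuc
MIRLET7G hairpin: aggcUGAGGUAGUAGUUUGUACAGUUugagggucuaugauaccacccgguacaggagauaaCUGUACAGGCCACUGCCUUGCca
MIR25 hairpin: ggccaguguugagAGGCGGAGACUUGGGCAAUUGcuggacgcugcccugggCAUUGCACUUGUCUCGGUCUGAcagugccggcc
MIR15A hairpin: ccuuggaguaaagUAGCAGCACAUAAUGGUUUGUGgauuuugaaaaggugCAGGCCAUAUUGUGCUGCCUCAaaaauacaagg

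The mature forms are shown next because several share a seed. Capitals mark the seed, bases 2 to 8 of the mature strand. The seed AUUGCAC is common to miR-25-3p, miR-32-5p and miR-92a-3p, and AGCAGCA to miR-15a-5p and miR-16-5p.
hsa-miR-25-3p: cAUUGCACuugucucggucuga
hsa-miR-32-5p: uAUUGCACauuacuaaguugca
hsa-miR-92a-3p: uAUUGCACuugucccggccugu
hsa-miR-15a-5p: uAGCAGCAcauaaugguuugug
hsa-miR-16-5p: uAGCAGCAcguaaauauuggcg
hsa-let-7g-5p: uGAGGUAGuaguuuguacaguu
hsa-miR-21-5p: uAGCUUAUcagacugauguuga
hsa-miR-142-3p: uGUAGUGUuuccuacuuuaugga
hsa-miR-142-5p: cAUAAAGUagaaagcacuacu
hsa-miR-199a-5p: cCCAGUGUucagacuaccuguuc
hsa-miR-193a-3p: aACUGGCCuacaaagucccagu
hsa-miR-196a-5p: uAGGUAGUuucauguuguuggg

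Values below are log2 signals per probe set, as deposited. Marker genes set the lines apart. All 5 measured B lineage markers were higher in Ramos (CD79A, 11.79 ± 0.02 in Ramos, n = 2, and 5.75 ± 0.03 in KMH2 control, n = 3, SD), and all 4 Hodgkin markers were lower there (TNFRSF8, the CD30 receptor, 5.86 ± 0.33 in Ramos and 8.74 ± 0.10 in KMH2 control, SD). Of 4 T cell markers, CD3D (8.19 ± 0.08, SD) and CD3G (7.92 ± 0.34, SD) carried signal in KMH2 control and were lower in Ramos, while CD3E and CD2 averaged 4.17 and 4.65, below the median probe set. Of 3 myeloid markers, CD14 (7.37 ± 0.27, SD) and CSF1R (7.29 ± 0.12, SD) carried signal in KMH2 control and were lower in Ramos, while LYZ averaged 3.88 in KMH2 control and was higher in Ramos (0.64, adjusted p = 4.61e-05). Markers moved with glucosamine as well. All 4 Hodgkin markers fell, by 0.29 (ID2) to 1.04 (GATA3) on the log2 scale, with TNFRSF8 at -0.73. CD14 fell by 1.08 (adjusted p = 0.00102), CSF1R rose by 0.54 (adjusted p = 0.00117) and LYZ did not pass. Of the B lineage markers PAX5 fell (-0.37, adjusted p = 0.0105) and 4 did not pass, and of the 4 T cell markers and the 2 erythroid markers 0 passed limma's test, with 2 and 0 at an unadjusted p under 0.05. Their part in the results was not tested.

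Most microRNA probe sets were dim, meaning that their mean over 8 arrays lay below the median of all probe sets, 5.70. This held for 165 of the 196 (84.2%), against 7330 of all 17958 genes (40.8%). Among the microRNA genes alone 158 of 180 were dim (87.8%), and among the long transcripts 7 of 16 (43.8%). The median signal of the 196 ran from 3.96 to 4.06 over the arrays. Dim signals may hold background of unknown size, which would make a difference on the log2 scale smaller than the change in RNA.

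The first comparison asked which of these genes changed in KMH2 cells given glucosamine for 24 h. The largest differences were in a few transcripts: DLEU2 fell 4.06-fold, MIR142 fell 2.78-fold and MIR199A2 fell 1.95-fold, while MIR570HG rose 1.47-fold. In all, 2 rose and 10 fell at an adjusted p under 0.05 and 184 did not pass, so 12 of 196 were called (6.12%), against 4956 of 19181 probe sets tested on the array (25.8%). The share was 11.9% for rises and 13.9% for falls over the array. Adjusted p-values here and below are from limma with Benjamini-Hochberg adjustment over all tested probe sets, and each ± beside a difference is a standard error.

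The share called was near that of the array among dim probe sets and below it among brighter ones. Of the 165 dim ones 7 were called (4.24%), against 6.47% of dim probe sets on the array, and of the 31 others 5 were called (16.1%), against 39.3%. In 33 of the 196 (16.8%) the 3 glucosamine arrays did not overlap the 3 control arrays, against 40.9% over the array, and all 12 called genes were among these 33. The median difference of the 196 was -0.01, against 0.01 for all genes, and 191 differed by less than 0.5 on the log2 scale. That last count was not taken over all genes. The median size of a difference, in either direction, was 0.07 for the 196 and 0.11 for all genes. The 184 that did not pass ran from -0.47 to 0.23. Without glucosamine replicate 1 the rises numbered 11, without glucosamine replicate 2 they numbered 4, and without control replicate 1 or 2 there was 1. The main fit did not pair the arrays by replicate number. With that number as a block, 5 rose and 16 fell, the 12 above among them.

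**Figure D1:**
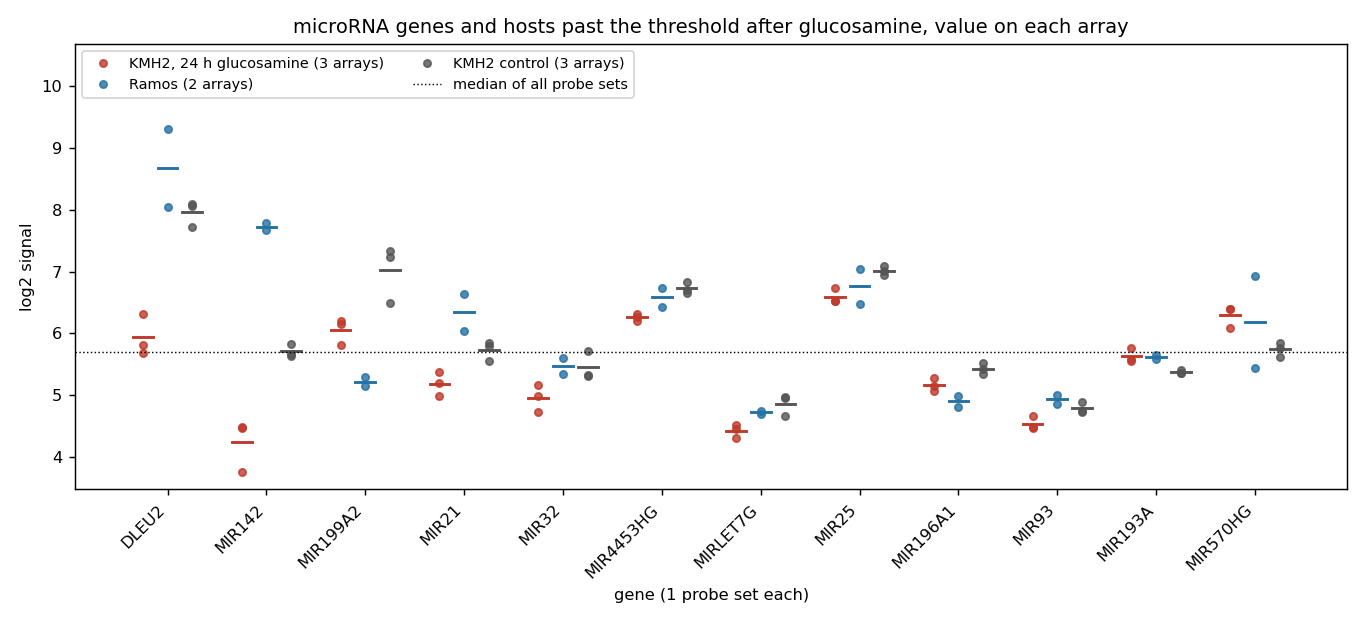
Log2 signal on each array (vertical axis) for the 12 microRNA genes and host transcripts past the threshold after glucosamine, in KMH2 glucosamine (3 arrays), Ramos (2 arrays) and KMH2 control (3 arrays). Points are arrays, short bars are group means and the dotted line is the median of all probe sets, 5.70. DLEU2 and MIR142 show the widest gap between the KMH2 groups.

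Among the long transcripts, DLEU2 stood out. DLEU2 is a long non-coding RNA on chromosome 13 whose transcript carries MIR15A and MIR16-1, in a region often deleted in chronic lymphocytic leukaemia. Its signal was 6.31, 5.82 and 5.68 on the glucosamine arrays and 8.07, 7.73 and 8.09 on the control arrays. Every glucosamine array lay more than 1 log2 unit below every control array. The difference was -2.02 ± 0.16 (95% confidence interval -2.40 to -1.64, adjusted p = 0.000134), the steepest fall, rank 1, among all 17958 genes in this fit. Without any single array it stayed past the threshold.

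The microRNAs inside DLEU2 did not share the size of that fall. MIR15A read 4.37, 5.00 and 5.05 on the glucosamine arrays and 5.25, 5.42 and 5.17 on the control arrays. The groups did not overlap, but glucosamine replicate 1 was far below the other arrays. The difference of -0.47 (95% confidence interval -0.86 to -0.09) had an adjusted p of 0.0754. It passed without glucosamine replicate 1 (adjusted p = 0.0467) and with the replicate block (adjusted p = 0.0238), in a range of 0.0238 to 0.216 over the alternatives. MIR16-1, the neighbouring hairpin, read 2.71, 2.76 and 2.80 on the glucosamine arrays and 2.79, 2.75 and 2.74 on the control arrays, which overlapped at a signal far below the median probe set. Its difference was -0.01 (95% confidence interval -0.12 to 0.11).

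Of the 15 HG transcripts, MIR570HG rose, MIR4453HG fell and 13 did not pass. MIR570HG read 6.09, 6.40 and 6.39 on the glucosamine arrays and 5.84, 5.77 and 5.61 on the control arrays, without overlap, a rise of 0.56 ± 0.10 (adjusted p = 0.00453). MIR4453HG read 6.26, 6.20 and 6.32 on the glucosamine arrays and 6.71, 6.65 and 6.84 on the control arrays, also without overlap. Its fall of 0.47 ± 0.07 on the log2 scale (1.39-fold, adjusted p = 0.0014) held without each array in turn. When the Ramos arrays shared in the estimate of spread, the rise of MIR570HG ended (adjusted p = 0.324, in a range of 0.00024 to 0.324). Its Ramos arrays read 5.44 and 6.93.

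The 13 HG transcripts that did not pass differed by -0.22 to 0.20. They were MIR600HG (-0.22), MIR7-3HG (-0.09), MIR9-1HG (-0.09), MIR31HG (-0.08), MIR1915HG (-0.03), MIR503HG (0.03), MIRLET7BHG (0.04), MIR3667HG (0.05), MIR646HG (0.11), MIR137HG (0.12), MIR1-1HG (0.13), MIR99AHG (0.19) and MIR4697HG (0.20). With the replicate block MIR600HG (adjusted p = 0.0287) and MIR4697HG (adjusted p = 0.0413) passed. Leaving out glucosamine replicate 1 brought MIR137HG (0.0435), MIR4697HG (0.0085), MIR646HG (0.00805) and MIR99AHG (0.017) past the threshold by adjusted p, and leaving out control replicate 1 did so for MIR600HG (0.0435). Over all alternatives the adjusted p ran from 0.0435 to 0.9 for MIR137HG, from 0.00805 to 0.972 for MIR646HG, from 0.017 to 0.41 for MIR99AHG, from 0.0085 to 0.359 for MIR4697HG and from 0.0287 to 0.436 for MIR600HG.

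Of the 180 microRNA genes, 1 rose, 8 fell and 171 did not pass. MIR142, whose microRNA is abundant in blood cells, read 3.75, 4.49 and 4.46 on the glucosamine arrays and 5.83, 5.63 and 5.67 on the control arrays. The groups lay more than 1 log2 unit apart. The difference was -1.48 ± 0.18 (95% confidence interval -1.89 to -1.06, adjusted p = 0.000775), rank 8 among the falls of all 17958 genes, and it stayed past the threshold without each array in turn.

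MIR199A2 is 1 of the pair of genes that encode miR-199a. It read 5.81, 6.20 and 6.16 on the glucosamine arrays and 6.49, 7.23 and 7.34 on the control arrays. The lowest control array, replicate 1, lay close to the glucosamine arrays, but the groups did not overlap. The difference was -0.96 ± 0.21 (adjusted p = 0.0117), and without control replicate 2 the adjusted p was 0.0501, in a range of 5.2e-05 to 0.0501. MIR199A1, the other gene of the pair and named after its values were seen, read 3.14, 3.47 and 3.15 on the glucosamine arrays and 3.37, 3.67 and 3.43 on the control arrays, with overlap (-0.23, adjusted p = 0.171). With the replicate block MIR199A1 passed as well (adjusted p = 0.0143), and it also passed without glucosamine replicate 2 (0.0436), in a range of 0.0143 to 0.449.

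MIR21, the source of a microRNA that is raised in many cancers, fell by less. It read 5.38, 4.98 and 5.20 on the glucosamine arrays and 5.79, 5.56 and 5.84 on the control arrays. The groups did not overlap, and the difference was -0.54 ± 0.11 (1.46-fold, adjusted p = 0.0088). With the Ramos arrays in the estimate of spread the adjusted p was 0.0786, in a range of 0.000731 to 0.0786.

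Both called genes of the AUUGCAC seed fell. MIR25 read 6.52, 6.53 and 6.74 on the glucosamine arrays and 6.95, 7.09 and 7.01 on the control arrays, a difference of -0.42 ± 0.07 (1.34-fold, adjusted p = 0.00397). MIR32 read 4.72, 5.16 and 4.99 on the glucosamine arrays and 5.32, 5.31 and 5.72 on the control arrays, a difference of -0.49 ± 0.14 (1.41-fold, adjusted p = 0.0329). Neither gene's groups overlapped. MIR92A2, the third measured gene with that seed and named after its values were seen, differed by 0.00 (adjusted p = 0.993) at a signal of 2.66 to 2.85 on the glucosamine arrays and 2.69 to 2.77 on the control arrays. The call of MIR32 ended without control replicate 3 (adjusted p = 0.0932), glucosamine replicate 1 (0.0655) or glucosamine replicate 3 (0.0781), in a range of 0.00977 to 0.0932. The call of MIR25 ended when the Ramos arrays shared in the spread (adjusted p = 0.0927, in a range of 0.00282 to 0.0927).

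Of the 10 measured genes with the let-7 seed GAGGUAG, MIRLET7G fell and 9 did not pass. MIRLET7G, a member of a family known to restrain growth genes, read 4.45, 4.31 and 4.52 on the glucosamine arrays and 4.66, 4.96 and 4.97 on the control arrays. The groups did not overlap, and the difference was -0.44 ± 0.10 (1.35-fold, adjusted p = 0.0114). MIRLET7A1, with the same seed, differed by -0.06 (adjusted p = 0.611).

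The smallest called differences were in MIR193A, MIR196A1 and MIR93, of which MIR196A1 and MIR93 were named after their values were seen. MIR193A rose, reading 5.77, 5.55 and 5.58 on the glucosamine arrays and 5.40, 5.36 and 5.36 on the control arrays (0.26 ± 0.07, adjusted p = 0.0251). MIR196A1 read 5.06, 5.27 and 5.15 on the glucosamine arrays and 5.35, 5.52 and 5.42 on the control arrays (-0.27, adjusted p = 0.0262). MIR93 read 4.46, 4.48 and 4.66 on the glucosamine arrays and 4.75, 4.72 and 4.89 on the control arrays (-0.25, adjusted p = 0.0401). In all 3 genes the groups were separated by a narrow gap. Each call was lost without some single arrays. For MIR193A these were control replicates 1, 2 and 3 (adjusted p = 0.0555, 0.0822 and 0.0806, in a range of 0.00971 to 0.0822). For MIR196A1 they were control replicates 2 and 3 (0.101 and 0.0739) and glucosamine replicates 1 and 3 (0.0532 and 0.081), with an adjusted p from 0.00626 to 0.101 over the alternatives. For MIR93 they were control replicates 1, 2 and 3 (0.0743, 0.0618 and 0.134) and glucosamine replicates 1 and 2 (0.084 and 0.114), with an adjusted p from 0.00997 to 0.134.

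Several microRNAs known from lymphocytes and cancer did not pass. MIR221, known from proliferating tumour cells, read 3.42, 3.86 and 3.44 on the glucosamine arrays and 3.85, 3.89 and 4.04 on the control arrays. The groups overlapped, since glucosamine replicate 2 read as high as a control array. The difference of -0.35 (95% confidence interval -0.62 to -0.08) had an adjusted p of 0.0612. It passed without glucosamine replicate 2 (adjusted p = 0.00419) and with the replicate block (0.0336), in a range of 0.00419 to 0.189. The other fixed names were MIR146A (-0.14), MIR34A, a target of p53 (-0.08), MIR150 (-0.06), MIR222 (-0.05), MIR181A1 (0.07) and MIR223 (0.09). Their confidence intervals lay within -0.28 to 0.24 on the log2 scale. MIR150 passed without both replicate 1 arrays, at -0.22 (adjusted p = 0.035, in a range of 0.035 to 0.958).

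Lists of microRNA genes and host transcripts with a common role or position gave few calls. Of 6 measured genes of the miR-17 type clusters, 2 fell (33.3%), MIR25 and MIR93, with a median of -0.07. Of 24 measured genes on the tumour suppressor list, 2 fell (8.33%), DLEU2 and MIRLET7G, with a median of -0.06. This list holds the long transcripts DLEU2 and MIRLET7BHG beside microRNA genes. Of 28 measured genes on the blood cell list, which includes the long transcript MIR99AHG, 2 fell (7.14%), MIR142 and MIR21, with a median of -0.03. None of 15 genes of the imprinted chromosome 14 cluster passed limma's test, where 2 had an unadjusted p under 0.05, and none of 3 genes of the chromosome 19 cluster passed, where 0 had one. The same over all genes was 26.1% called, with a median of 0.01. All 28 blood cell genes, 21 of the 24 tumour suppressor genes and all genes of the 2 chromosome clusters were dim. Among dim probe sets 6.47% were called, so the counts of these lists were near that background. Of the 6 miR-17 type genes 4 were dim.

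**Figure D2:**
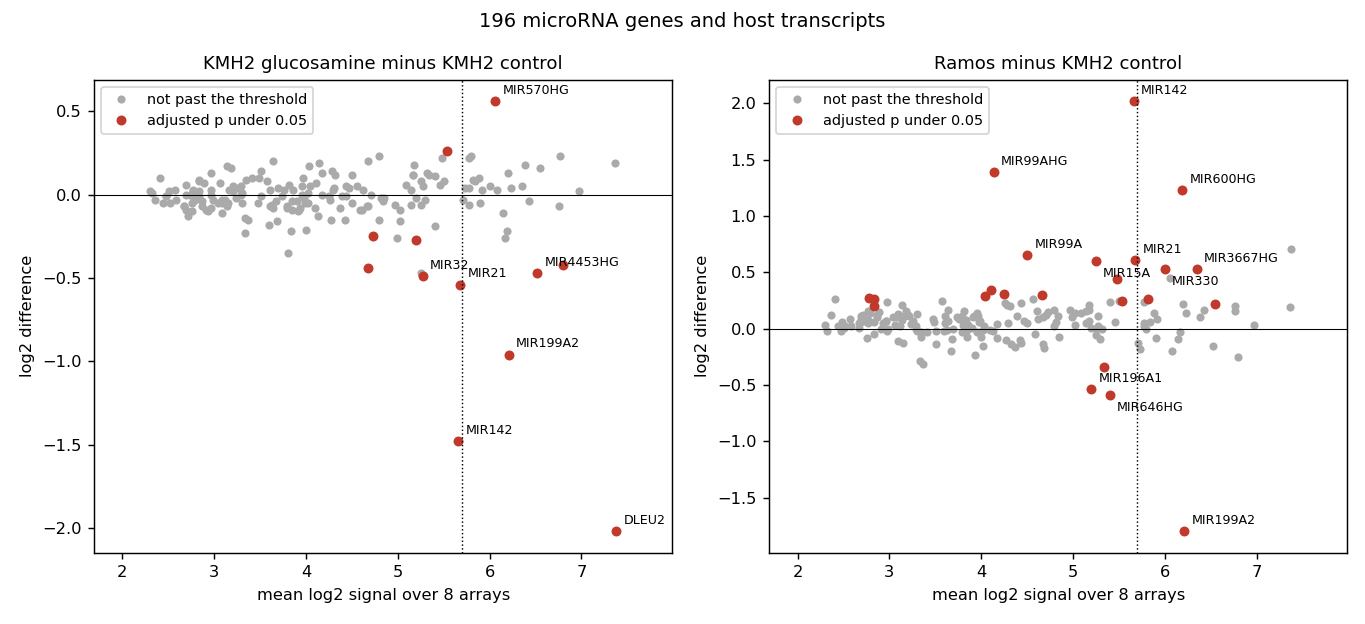
Log2 difference (vertical axis) against the mean log2 signal over 8 arrays (horizontal axis) for the 196 microRNA genes and host transcripts, for KMH2 glucosamine minus KMH2 control and for Ramos minus KMH2 control. Red points passed an adjusted p of 0.05 and the dotted line marks the median probe set, 5.70. After glucosamine most points lie near 0, with DLEU2 at -2.02 and MIR142 at -1.48.

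MicroRNA genes were then set beside the genes they lie in. RefSeq places 118 of them inside a gene on the same strand, and in 61 cases, in 50 different hosts, that host had a probe set of its own. After glucosamine the host was called in 19 pairs and the microRNA in 5. Both were called in the same direction in 2 pairs and in opposite directions in 1, and the sign was shared in 30 of 61. Pearson's r across the 61 pairs was 0.18, a description over pairs that partly share a host, with 51 microRNAs and 15 hosts dim. Over the array 25.8% of probe sets were called after glucosamine, with 6.47% of dim ones and 39.3% of the others. Whether a microRNA probe set also captured host RNA was not tested.

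MCM7, a subunit of the replicative helicase, holds MIR25, MIR93 and MIR106B in an intron. It read 10.20, 10.36 and 10.24 on the glucosamine arrays and 10.76, 10.74 and 10.70 on the control arrays. All glucosamine arrays were lower, and the difference was -0.47 ± 0.06 (1.38-fold, adjusted p = 0.000902). MIR25 fell by 0.42 and MIR93 by 0.25 on the log2 scale. MIR106B, in the same host and named after its values were seen, read 6.04, 5.78 and 5.84 on the glucosamine arrays and 6.03, 5.83 and 5.95 on the control arrays, which overlapped (-0.05, adjusted p = 0.725). The call of MCM7 ended when the Ramos arrays shared in the spread (adjusted p = 0.137, in a range of 0.000169 to 0.137).

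TMEM245, a membrane protein gene that holds MIR32, went the other way from its microRNA. It read 9.28, 9.34 and 9.36 on the glucosamine arrays and 8.99, 8.98 and 9.02 on the control arrays, a rise of 0.33 ± 0.05 (adjusted p = 0.00223), while MIR32 fell by 0.49. MIR21 and MIRLET7G were called with no call in their hosts, both named after their values were seen. The autophagy gene VMP1, host of MIR21, differed by 0.17 (adjusted p = 0.0656) and WDR82, host of MIRLET7G, by -0.10 (adjusted p = 0.212). VMP1 passed without glucosamine replicate 2 (adjusted p = 0.0335, in a range of 0.0223 to 0.195). With the Ramos arrays in the spread TMEM245 did not pass (adjusted p = 0.0656, in a range of 0.000374 to 0.0656).

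In the other 16 pairs with a called host the microRNA did not pass. Over the 42 hosts that are not themselves among the 196, 3 rose and 10 fell (31.0%), with a median of 0.01. The same was 26.1% over all genes and 39.3% among probe sets that were not dim, and 8 of the 42 hosts were dim. SKA2, a spindle protein gene that holds MIR301A, fell by 0.37 on the log2 scale (adjusted p = 0.00197), and MIR301A differed by -0.13. SKA2 had 2 probe sets, and the brighter was used, whose position relative to MIR301A was not checked. LPP, a gene of cell adhesion that holds MIR28, fell by 0.35 (adjusted p = 0.00221), and MIR28 differed by -0.08. CTDSP1, a phosphatase gene that holds MIR26B, fell by 0.33 (adjusted p = 0.00233), and MIR26B differed by 0.03. SREBF2, the transcription factor of cholesterol synthesis that holds MIR33A, rose by 0.34 (adjusted p = 0.00479), and MIR33A differed by -0.07. With the Ramos arrays in the spread SKA2 (adjusted p = 0.125, in a range of 0.000388 to 0.125) and SREBF2 (0.269, in a range of 0.00178 to 0.269) did not pass.

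**Figure D3:**
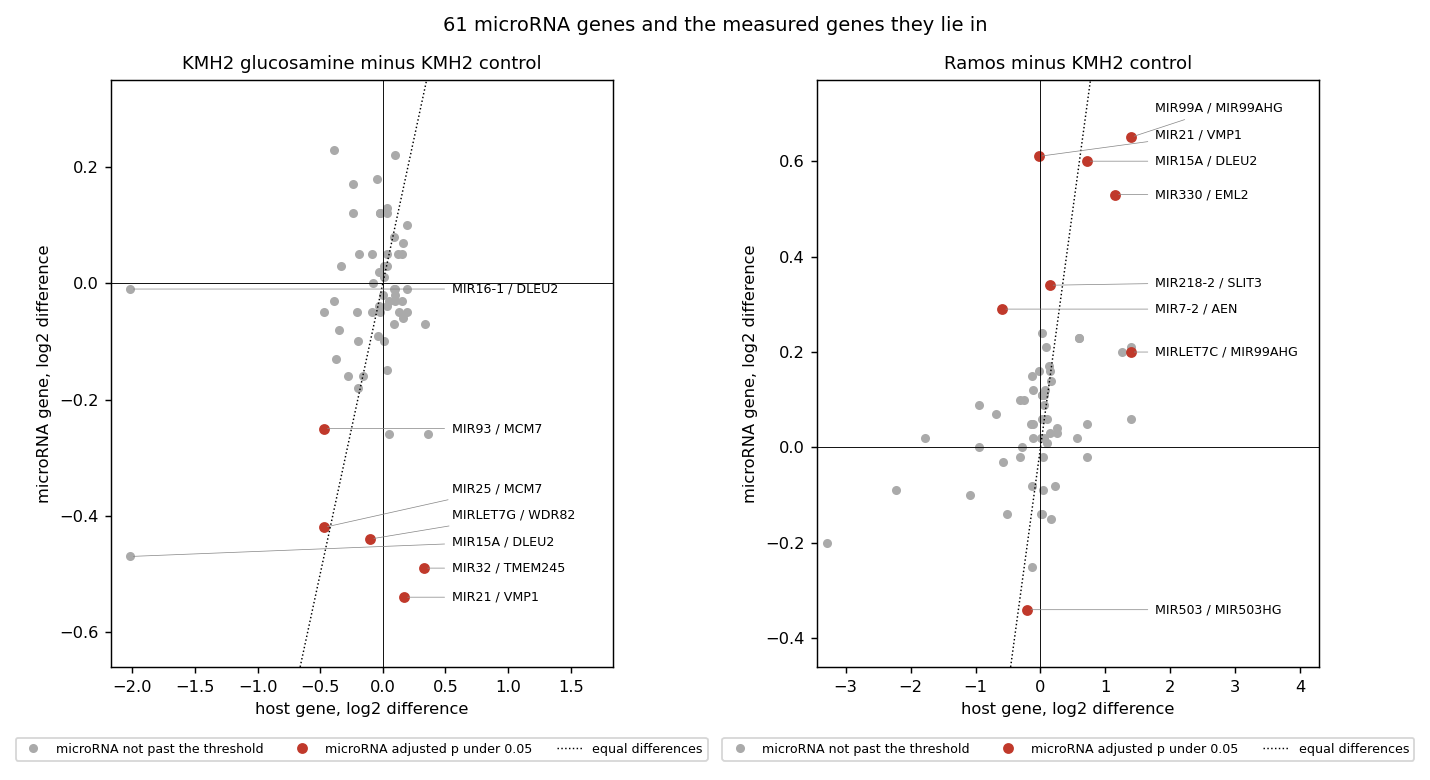
Log2 difference of the microRNA gene (vertical axis) against that of its host gene (horizontal axis) for 61 pairs, for KMH2 glucosamine minus KMH2 control and for Ramos minus KMH2 control. Red points are pairs whose microRNA passed the threshold, and the dotted line marks equal differences. DLEU2 lies at -2.02 after glucosamine, with MIR15A at -0.47 and MIR16-1 at -0.01.

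The genes that make and use microRNAs were read next. Of 47 genes on the pathway list 45 were measured, and after glucosamine 6 rose and 11 fell (37.8%), with a median of -0.03. The share called was 25.8% over the array and 39.3% among probe sets that were not dim, and 3 of the 45 were dim, so the count was near that background. DROSHA, the nuclear enzyme that cuts out the hairpin, read 8.98, 9.21 and 9.10 on the glucosamine arrays and 9.49, 9.60 and 9.58 on the control arrays. All glucosamine arrays were lower, by 0.46 ± 0.07 on average (adjusted p = 0.00205). DGCR8, its RNA-binding partner, read 6.72, 7.15 and 7.05 on the glucosamine arrays and 7.37, 7.38 and 7.42 on the control arrays, also without overlap (-0.42 ± 0.10, adjusted p = 0.0187). XPO5, the exporter of the hairpin, was higher, with 9.74, 9.78 and 9.75 on the glucosamine arrays and 9.48, 9.57 and 9.53 on the control arrays (0.23 ± 0.05, adjusted p = 0.0133). DICER1, which trims the hairpin, differed by -0.14 (95% confidence interval -0.42 to 0.13) and AGO2, which holds the mature strand, by -0.08 (-0.20 to 0.04), and neither passed.

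The 4 genes of the pathway list with the smallest p were PAN2, GEMIN4, DCP1A and NCBP1. PAN2, the catalytic subunit of a deadenylase that shortens messages bound by microRNAs, read 7.48, 7.77 and 7.77 on the glucosamine arrays and 8.51, 8.71 and 8.67 on the control arrays. The groups were well apart (-0.96 ± 0.09, 1.95-fold, adjusted p = 0.000267). GEMIN4, a protein found with Argonaute and in the SMN complex, fell by 0.63 ± 0.06 on the log2 scale (adjusted p = 0.000232). NCBP1, the large subunit of the nuclear cap-binding complex, fell by 0.48 ± 0.06 (adjusted p = 0.00114), and DCP1A, a decapping factor, rose by 0.42 ± 0.05 (adjusted p = 0.00092). PRKRA, a partner of DICER1, had the largest rise on the list, with 9.41, 9.33 and 9.27 on the glucosamine arrays and 8.84, 8.82 and 8.97 on the control arrays (0.46 ± 0.06, adjusted p = 0.00139). MOV10, an RNA helicase found with Argonaute, fell by 0.46 (adjusted p = 0.0105), as much as DROSHA. PRKRA and MOV10 were named here after their values were seen. With the Ramos arrays in the spread, DROSHA (adjusted p = 0.0745, in a range of 0.000303 to 0.0745), XPO5 (0.347, in a range of 0.00533 to 0.347) and NCBP1 (0.291, in a range of 0.000184 to 0.291) did not pass. DGCR8 did not pass in that fit (adjusted p = 0.0728), without control replicate 2 (0.0591) or without control replicate 3 (0.0681), in a range of 0.00418 to 0.0728.

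**Figure D4:**
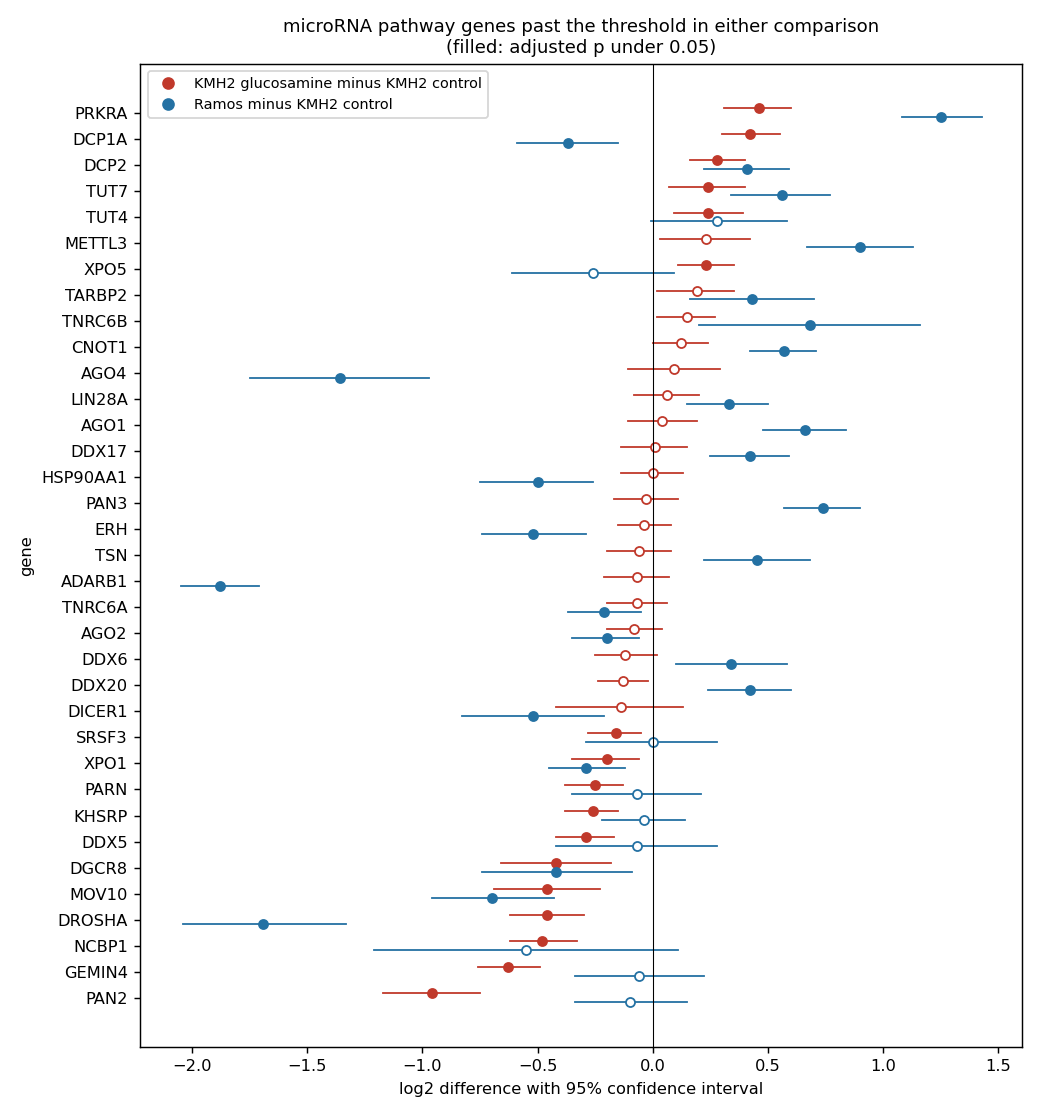
Log2 difference (horizontal axis) with its 95% confidence interval for the 35 genes of the microRNA pathway that passed the threshold in either comparison, for KMH2 glucosamine minus KMH2 control and for Ramos minus KMH2 control. Filled points passed and open points did not. DROSHA and DGCR8 lie below 0 in both comparisons, and PRKRA lies above 0 in both.

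The second comparison set Ramos against KMH2 control. The pair of lines differed most in MIR142 (4.06-fold higher in Ramos), MIR199A2 (3.48-fold lower), MIR99AHG (2.62-fold higher) and MIR600HG (2.35-fold higher). In all, 19 of the 196 were higher and 4 lower at an adjusted p under 0.05, 23 in number (11.7%), against 8408 of 19181 probe sets tested (43.8%; 22.7% higher and 21.2% lower). Of the dim ones 17 of 165 were called (10.3%), against 21.0% over the array, and of the others 6 of 31 (19.4%), against 59.6%. Both Ramos arrays lay above, or both below, all 6 KMH2 arrays for 46 of the 196 (23.5%), against 48.3% over the array, and for 21 of the 23 called. The median difference was 0.07, against 0.06 for all genes, and 12 of the 23 called differed by less than 0.5 on the log2 scale. Without Ramos replicate 1 the lower calls numbered 8.

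**Figure D5:**
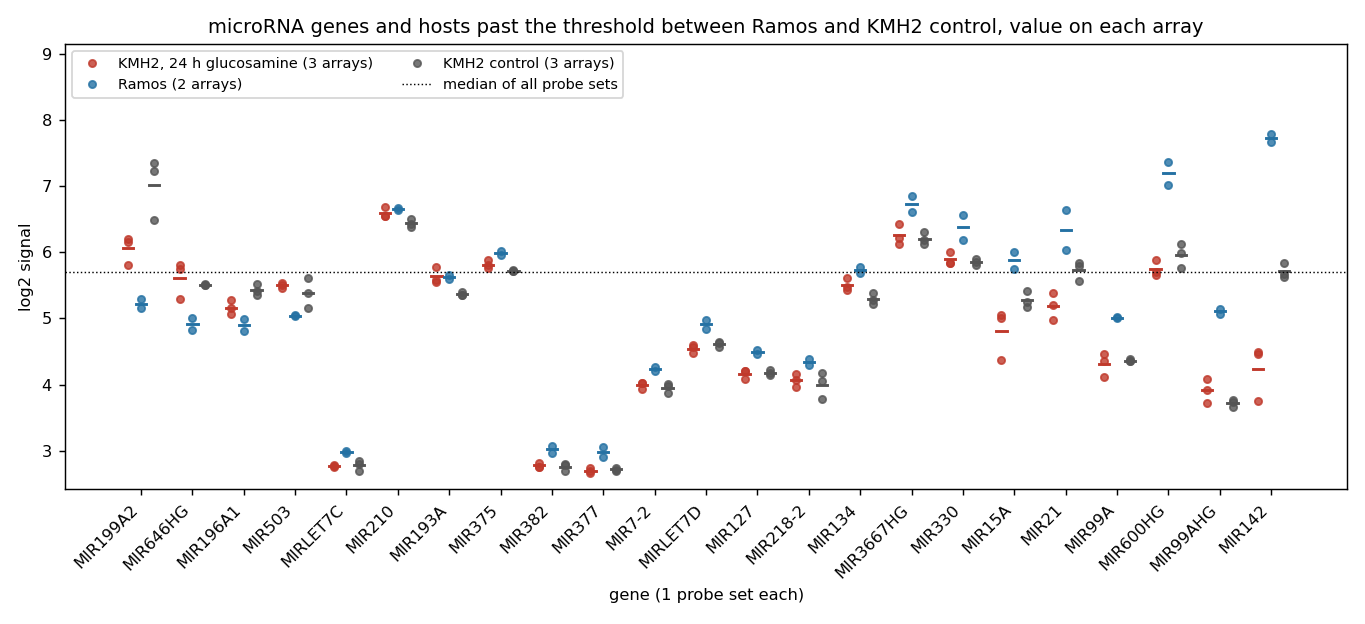
Log2 signal on each array (vertical axis) for the 23 microRNA genes and host transcripts past the threshold between Ramos and KMH2 control, in KMH2 glucosamine (3 arrays), Ramos (2 arrays) and KMH2 control (3 arrays). Points are arrays, short bars are group means and the dotted line is the median of all probe sets, 5.70. MIR142 is highest in Ramos, at 7.67 and 7.79, and lowest in the glucosamine arrays.

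MIR142 read 7.67 and 7.79 in Ramos and 5.83, 5.63 and 5.67 in KMH2 control. Both Ramos arrays lay far above every KMH2 array, and the difference was 2.02 ± 0.21 (adjusted p = 7.54e-05). The comparisons share their control arrays. Against these arrays MIR142 was 1.48 lower after glucosamine and 2.02 higher in Ramos on the log2 scale. MIR199A2 read 5.29 and 5.15 in Ramos and 6.49, 7.23 and 7.34 in KMH2 control, lower on both Ramos arrays than on all KMH2 arrays (-1.80, adjusted p = 0.000385).

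On chromosome 21 the long transcript MIR99AHG and part of the microRNAs it holds were higher in Ramos. MIR99AHG holds 3 measured microRNA genes, MIR99A, MIRLET7C and MIR125B2. MIR99A lies at chr21:16539089-16539169 on the plus strand, and its hairpin is shown with mature arms in capitals, followed by the mature strands of the pair with the seed in capitals.
MIR99A hairpin: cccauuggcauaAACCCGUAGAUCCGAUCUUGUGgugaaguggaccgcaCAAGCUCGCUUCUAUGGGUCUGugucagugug
hsa-miR-99a-5p: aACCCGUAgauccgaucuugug
hsa-let-7c-5p: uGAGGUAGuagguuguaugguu

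MIR99AHG read 5.14 and 5.07 in Ramos and 3.73, 3.66 and 3.76 in KMH2 control. Its Ramos arrays lay more than 1 log2 unit above the controls (1.39 ± 0.11, adjusted p = 1.27e-05). MIR99A read 5.00 and 5.02 in Ramos and 4.38, 4.35 and 4.35 in KMH2 control (0.65, 1.57-fold, adjusted p = 0.000793). MIRLET7C, named after its values were seen, read 3.00 and 2.96 in Ramos and 2.70, 2.84 and 2.80 in KMH2 control (0.20, adjusted p = 0.0366). These 3 genes were higher on both Ramos arrays than on every KMH2 array. MIR125B2, in the same host and also named after its values were seen, read 3.44 and 3.55 in Ramos and 3.51, 3.49 and 3.32 in KMH2 control, with overlap (0.06, adjusted p = 0.704). The call of MIRLET7C was lost without control replicate 1 (adjusted p = 0.109), control replicate 3 (0.0734) or Ramos replicate 1 (0.0888), in a range of 0.0102 to 0.278.

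Other long transcripts differed too. MIR600HG read 7.01 and 7.37 in Ramos and 5.76, 6.13 and 5.99 in KMH2 control, without overlap (1.23, adjusted p = 0.000154). MIR3667HG read 6.85 and 6.61 in Ramos and 6.12, 6.19 and 6.30 in KMH2 control (0.53, 1.44-fold, adjusted p = 0.00541). MIR646HG was lower, reading 5.01 and 4.82 in Ramos and 5.50, 5.52 and 5.50 in KMH2 control (-0.59, 1.51-fold, adjusted p = 0.0112). Each of the 3 lay on the same side on both Ramos arrays. The other 12 long transcripts did not pass, with DLEU2 at 0.71 (adjusted p = 0.131) and MIR570HG at 0.45 (adjusted p = 0.352). DLEU2 read 9.31 and 8.04 in Ramos and passed without Ramos replicate 2 (adjusted p = 0.00149, in a range of 0.00149 to 0.813). MIR570HG passed without Ramos replicate 1 (adjusted p = 0.000139, in a range of 0.000139 to 0.525). MIR4453HG passed without Ramos replicate 1 (0.0282, in a range of adjusted p from 0.0282 to 0.961), and MIR1-1HG (0.0283, from 0.0283 to 0.514) and MIR9-1HG (0.0316, from 0.0316 to 0.692) passed without control replicate 3.

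MIR15A, carried by DLEU2, read 5.74 and 6.01 in Ramos and 5.25, 5.42 and 5.17 in KMH2 control, higher on both Ramos arrays (0.60, adjusted p = 0.0406). MIR21 read 6.64 and 6.04 in Ramos and 5.79, 5.56 and 5.84 in KMH2 control, also higher on both (0.61, adjusted p = 0.0301). These calls lay near the threshold and were lost when single arrays were left out. MIR15A did not pass without control replicate 1, 2 or 3 (adjusted p = 0.0958, 0.0587 and 0.114) or Ramos replicate 2 (0.155), in a range of 0.0121 to 0.159. MIR21 did not pass without control replicate 1, 2 or 3 (adjusted p = 0.0605, 0.0959 and 0.0506) or Ramos replicate 1 (0.155), in a range of 0.00161 to 0.155.

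MIR330 read 6.56 and 6.19 in Ramos and 5.80, 5.85 and 5.89 in KMH2 control (0.53, adjusted p = 0.00498). Its host EML2, a microtubule-associated protein gene named after its values were seen, was higher as well (1.15, adjusted p = 0.000187). MIR196A1 read 4.99 and 4.81 in Ramos and 5.35, 5.52 and 5.42 in KMH2 control, lower on both Ramos arrays (-0.54, adjusted p = 0.00171). MIR503 read 5.03 and 5.05 in Ramos and 5.16, 5.39 and 5.61 in KMH2 control, lower by a narrow margin (-0.34, adjusted p = 0.0477). MIR503 did not pass without control replicate 2 (adjusted p = 0.108), control replicate 3 (0.103), Ramos replicate 1 (0.101) or Ramos replicate 2 (0.0884), in a range of 0.00705 to 0.236.

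Of the 15 measured genes of the imprinted chromosome 14 cluster, 4 were higher in Ramos (26.7%) and 11 did not pass, with a median of 0.05. Over the array 22.7% of probe sets were higher in Ramos, and 21.0% of dim probe sets were called in either direction, so the count for these dim genes was near the background. The median over all genes was 0.06. The 4, named after their values were seen, were MIR134 (0.44, adjusted p = 0.00313), MIR127 (0.31, 0.00539), MIR377 (0.27, 0.0131) and MIR382 (0.26, 0.0132). All 15 were dim, and the 4 lay higher on both Ramos arrays than on all KMH2 arrays. MIR377 did not pass without Ramos replicate 1 (adjusted p = 0.051, in a range of 0.00322 to 0.103). Of the blood cell list 4 of 28 were higher (14.3%) and of the tumour suppressor list 3 of 24 (12.5%), with 0 lower in either list. All 28 and 21 of the 24 were dim. The share among dim probe sets was 21.0% in either direction, and 22.7% of all probe sets were higher. Of the miR-17 type clusters 0 of 6 passed limma's test, with 0 at an unadjusted p under 0.05. The fixed names MIR16-1, MIR34A, MIR146A, MIR150, MIR181A1, MIR221, MIR222, MIR223 and MIRLET7A1 did not pass in Ramos. Their adjusted p ran from 0.0809 for MIR34A to 0.99 for MIR150. With quantile normalization MIR34A was lower (-0.32, adjusted p = 0.0256), and without Ramos replicate 1 it differed by -0.34.

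The other 6 genes called, also named after their values were seen, were higher by 0.22 to 0.34. They were MIR210, known from low oxygen (0.22), MIR193A (0.25), MIR375 (0.26), MIR7-2 (0.29), MIRLET7D (0.30) and MIR218-2 (0.34). MIR193A and MIR210 overlapped the glucosamine arrays, the others lay above all 6 KMH2 arrays. Their adjusted p ran from 0.0112 for MIR375 to 0.0478 for MIR218-2. Leaving out single arrays ended the calls of MIR193A (without control replicate 1, 2 or 3, adjusted p = 0.0701, 0.093 and 0.0921, or Ramos replicate 1, 0.0977), MIRLET7D (without Ramos replicate 2, 0.0512) and MIR210 (without control replicate 2 or 3, 0.105 and 0.12, or Ramos replicate 1 or 2, 0.0626 and 0.0916). MIR218-2 did not pass without control replicate 1 or 2 (adjusted p = 0.0803 and 0.113) or Ramos replicate 1 or 2 (0.0544 and 0.143). Over the alternatives the highest adjusted p of these 4 was 0.162, 0.116, 0.202 and 0.305 in the same order, and the lowest 0.0304, 0.00487, 0.0363 and 0.0268.

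In the 61 pairs, Ramos and KMH2 control differed in the host in 22 and in the microRNA in 8. Both were called in the same direction in 3 pairs, MIR330 in EML2 and MIR99A and MIRLET7C in MIR99AHG, and in opposite directions in 1, MIR7-2 (0.29) in AEN (-0.59), an exonuclease gene named after its values were seen. The sign was shared in 41 of 61, and Pearson's r across pairs was 0.45, with the same limits as above. AEN did not pass without control replicate 1 (adjusted p = 0.0713) or Ramos replicate 2 (0.124), in a range of 0.00388 to 0.124.

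Of the 45 pathway genes, 14 were higher and 12 lower in Ramos (57.8%), with a median of -0.03. The share called was 43.8% over the array and 59.6% among probe sets that were not dim, and 3 of the 45 were dim, so the count was near that background. DROSHA read 8.16 and 7.58 in Ramos and 9.49, 9.60 and 9.58 in KMH2 control, lower on both Ramos arrays by more than 1 log2 unit (-1.69 ± 0.16, 3.22-fold, adjusted p = 4.09e-05). DGCR8 (-0.42, adjusted p = 0.0428), DICER1 (-0.52, 0.0145) and AGO2 (-0.20, 0.0319) were also lower. XPO5 did not pass (-0.26, adjusted p = 0.209), with 9.57 and 8.96 in Ramos. The editing enzyme ADARB1 read 5.57 and 5.64 in Ramos and 7.47, 7.55 and 7.45 in KMH2 control, well apart (-1.88, 3.69-fold, adjusted p = 2.07e-07). PRKRA was higher (1.25, adjusted p = 2.81e-06), as was PAN3, the partner of PAN2 (0.74, adjusted p = 5.98e-05).

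Several of these pathway calls changed when single arrays were left out. DGCR8 did not pass without control replicate 1, 2 or 3 (adjusted p = 0.0871, 0.0946 and 0.106) or Ramos replicate 2 (0.215), in a range of 0.0095 to 0.215. DICER1 did not pass without control replicate 2 (adjusted p = 0.0523, in a range of 0.00477 to 0.0617). AGO2 did not pass without control replicate 1, 2 or 3 (adjusted p = 0.068, 0.0942 and 0.071) or Ramos replicate 2 (0.0959), in a range of 0.027 to 0.198. XPO5 passed without Ramos replicate 1 (adjusted p = 0.000235, in a range of 0.000235 to 0.651). DROSHA, ADARB1, PRKRA and PAN3 stayed past the threshold without each array in turn.

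Of the 196, 5 were called in both comparisons, which share the control arrays. Over the array 25.8% of probe sets were called after glucosamine and 43.8% in Ramos. The share called in both was not counted over the array, so no trait of these genes is read from the 5. MIR199A2 and MIR196A1 were lower and MIR193A higher than KMH2 control in both. MIR142 and MIR21 were lower after glucosamine and higher in Ramos.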

How the data were processed

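Values were the log2 signals per probe set that the authors deposited, 33297 probe sets for each of 8 arrays, with array medians from 5.62 to 5.68. Labelling of total RNA for HuGene 1.1 ST array strips is given per the labels' protocols. The summarization, background correction and normalization are not given in the sources used here. Neither scanner files nor detection calls were analysed here. Levels of different probe sets were not compared as RNA amounts. The number of arrays limits the precision.

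Names came from the platform's annotation table, whose symbols can be old. It listed 21236 probe sets, of which 19181 had 1 symbol and were tested and 2055 had several and were not named. Each of the 196 genes had 1 such probe set. Genes with more than 1, among them the hosts SKA2 and WDR82, were read on the probe set with the highest mean over 8 arrays. Hosts are RefSeq genes (GRCh38.p14) on the same strand that contain the microRNA gene. A strand was given for 171 microRNA genes.

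Differences were tested with limma 3.58.1 in R 4.3.3 by two-sided moderated tests (lmFit, then eBayes), adjusted by Benjamini-Hochberg over the 19181 probe sets at a threshold of 0.05, after the procedure had been tested on simulated data. Glucosamine was tested on the 6 KMH2 arrays alone, and Ramos on all 8 arrays in 3 groups. Same-numbered KMH2 arrays deviated together from their group means (correlations 0.46, 0.23 and 0.23). The series describes each replicate as sampled before and after treatment, by which the numbers would pair the arrays. Arrays 2 and 3 correlated across numbers to a like degree (0.25 and 0.18), so the correlations do not tell which of them pair. The main fit left the pairing out, and a fit with the replicate number as a block was an alternative.

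Genes named were set by rule. After glucosamine these were up to 8 rises and 8 falls among called genes whose groups did not overlap. For Ramos these were up to 8 on each side with both Ramos arrays beyond all 6 KMH2 arrays. All HG transcripts, DLEU2, a fixed set of well-known microRNAs, DROSHA, DGCR8, XPO5, DICER1, AGO2, the 4 pathway genes with the smallest p and the 6 called hosts with the smallest p were added. The genes and lists were chosen with earlier results of these data known. The alternatives were every probe set of the table, array weights, all 8 arrays in the spread, dim probe sets left out, both replicate 1 arrays left out, the mean over the probe sets of a gene, quantile normalization, an intensity trend, Ramos and control arrays alone, and each array left out. The X-linked testis cluster had 0 measured genes.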

Additional observations from a re-analysis of the deposited data

How the results depend on the processing

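No difference changed direction as a called value. Rises among the 196 after glucosamine, 2 as reported, numbered 1 over every probe set of the table, 13 with array weights, 0 when all 8 arrays shared the spread (limma, with 6 at an unadjusted p under 0.05), 7 without both replicate 1 arrays and 5 with the replicate block. Falls, 10 as reported, numbered 16 with array weights, 5 with all 8 arrays, 4 without dim probe sets and 16 with the replicate block. The block, which pairs the KMH2 arrays by number, kept all 12 calls and added 9. It moved no other count over 1.5 times. Pathway genes after glucosamine numbered 3 higher and 4 lower with all 8 arrays, against 6 and 11. Hosts numbered 5 higher with array weights, without dim probe sets or with an intensity trend and 1 with all 8 arrays, against 3, and 3 lower with all 8 arrays, against 10. In Ramos 7 of the 196 were higher with array weights and 5 without dim probe sets, against 19, and 1 was lower without dim probe sets, against 4. Only 31 of the 196 are left in the fit without dim probe sets. For the other settings the cause was not tested. Leaving out each array gave after glucosamine 1 to 11 rises and 7 to 12 falls of the 196, 4 to 9 and 8 to 10 for pathway genes, 2 to 4 and 6 to 9 for hosts (6 without control replicate 2), and in Ramos 14 to 21 higher and 3 to 8 lower, with 11 to 18 and 8 to 18 for pathway genes. DLEU2, MIR142, MIR4453HG and MIRLET7G were the 4 of 12 called after glucosamine that passed in every alternative giving them a value, and 10 of 23 did so in Ramos. Signals near background limit what the 165 dim probe sets can show.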

Other observations

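The 2 Ramos arrays were close for most of these genes, with a median gap of 0.11 on the log2 scale over the 196, against 0.16 over the 19181 tested probe sets. Of the 196, 84.2% were dim, against 40.8% of all genes. The gap among dim probe sets alone was not taken, so the lower median is not read as closer agreement. A gap of at least 1 was seen in 2 of the 196 and in 510 of the tested probe sets. MIR570HG read 5.44 on replicate 1 and 6.93 on replicate 2, a gap of 1.48. DLEU2 read 9.31 on replicate 1 and 8.04 on replicate 2, a gap of 1.27. MIR21 read 6.64 and 6.04 and MIR25 read 7.05 and 6.48. With 1 array on each side there is no test, and which of the pair, if either, came from treated cells was not given by the labels.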
